A study of Drosophila melanogaster with 6 samples.

Results

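Autophagy and lysosome genes were followed in intestinal stem cells (ISCs) of the adult midgut, in control flies and in flies with RNAi against NF-YA, a DNA-binding subunit of the trimeric transcription factor NF-Y. The members are the genes in the authors' gene table whose symbol is Atg followed by a digit, together with a list of regulators, fusion factors and lysosomal proteins. Of the 8470 genes in that table, 36 were found, 19 of them by the Atg symbol. Of 33 listed symbols 32 were found, and the exception is Vps34, a name the table does not use. Among the 36 genes, 7 were downregulated and 0 were upregulated in NF-YA RNAi. The 7 genes are the initiation factors Atg17 and Atg101, the lipid-binding proteins Atg18a and Atg18b, the ubiquitin-like protein Atg8a, the protease CtsB and the lysosomal transporter spin. Their levels in NF-YA RNAi lay between 58.8% and 74.6% of the control.

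Autophagy encloses cytoplasm in a double membrane, the autophagosome, which fuses with the lysosome so that its content is degraded and recycled. The Atg1 kinase complex starts the process, a lipid kinase complex built around Vps34 marks the forming membrane, and the Atg18, Atg2 and Atg9 proteins supply it with lipid. A pair of ubiquitin-like reactions then attaches Atg8 to the membrane, where it recruits cargo and fusion factors. The kinase mTORC1 inhibits the Atg1 complex when nutrients are plentiful, and in the gut autophagy is known for its role in epithelial maintenance.

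The study profiled 3 control libraries and 3 NF-YA RNAi libraries. All 6 came from the midguts of adult female flies that carry the ISC-Gal4 driver, in which esg-Gal4 acts together with a temperature-sensitive Gal80 and with Su(H)GBE-Gal80, which blocks Gal4 in enteroblasts. The driver also expresses YFP, by which the cells were sorted. In the control the driver was crossed to Oregon R, and in the other group to an NF-YA RNAi line from the Vienna collection, so that the groups differ in strain as well as in the hairpin. The sample labels give 3 days at 18°C after eclosion, 3 days at 29°C and 3 further days on holidic food, a chemically defined diet, whereas the methods give 3 days on holidic food at 29°C. Library numbers run from 1 to 3 in the control and are 2, 4 and 5 in NF-YA RNAi, each library from an independent sample of sorted cells.

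The authors deposited transcript counts estimated by Salmon, which total between 77092609 and 122269943 per library. After summing to genes, edgeR's quasi-likelihood test was run over the 9084 genes that passed a filter on low counts. A gene is called when its Benjamini-Hochberg adjusted p over all of these genes is under 0.05. Levels are in CPM, which relates each count to its library's normalized size, and levels of different genes are compared by TPM, which also corrects for transcript length. Nf-YA itself fell from 19.7 ± 3.77 to 4.25 ± 0.671 CPM (SD, n = 3). All 36 members passed the filter, and their lowest count in any library was 27, for Atg12, and their highest 62868, for Npc2a.

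Markers of other cell types were also detected, at levels that differed between the groups. Summed CPM of 7 progenitor markers was 2496, 2236 and 2110 in control libraries 1, 2 and 3, and 2011, 1929 and 2042 in RNAi libraries 2, 4 and 5. The largest part of this sum was Sox100B, at 986 ± 106 and 913 ± 47.3 CPM (SD, n = 3). Estimates of the 7 markers were 6 negative and 1 positive, with a median of -0.16 and 1 called. The called marker, esg, fell by 0.62 on the log2 scale (adjusted p = 0.007), while sna had an estimate of 0.56 (adjusted p = 0.135). Summed CPM of 16 enterocyte markers was 5742, 2297 and 2058 in the control and 1551, 587 and 358 in NF-YA RNAi. Of the 16 markers 15 were lower, 7 of them called, and 3 of the 16 were under 1 CPM in every library. The marker with a positive estimate was nub, at 6.85, 7.5 and 7.78 CPM in the control and 13.4, 10.6 and 8.09 CPM in NF-YA RNAi. Its groups did not overlap, and its estimate was 0.54 (adjusted p = 0.105). Summed CPM of 13 enteroendocrine markers was 2199, 2372 and 1851 in the control and 995, 525 and 1216 in NF-YA RNAi, with 13 of 13 lower and 6 called. Visceral muscle markers summed to between 554 and 675 CPM with overlapping groups, but most of this sum was Tm1, at 504 ± 42.0 and 482 ± 26.6 CPM (SD, n = 3), and 11 of 12 muscle markers had negative estimates, with a median of -1.21 and 1 called. Hemocyte markers summed to between 75.2 and 82.2 CPM in the control and between 39.8 and 56.4 CPM in NF-YA RNAi. Most of this sum was crq, at 64.6 ± 4.79 and 42.7 ± 7.86 CPM (SD, n = 3). Of 6 hemocyte markers tested, 3 were called lower and 1 higher, Sr-CI, with an estimate of 1.58 (adjusted p = 0.046). Sums of tracheal and neuronal markers were also lower in every RNAi library than in any control library. Most of the tracheal sum was btl, at 22.4 ± 2.24 and 15.6 ± 1.03 CPM (SD, n = 3). Of 3 tracheal markers tested, 2 had negative estimates, and that of serp was 0.88 (adjusted p = 0.299). The sum of fat body markers was likewise lower in every RNAi library. Nearly all of it was FASN1, a lipid synthesis gene, at 904 ± 61.2 and 524 ± 45.5 CPM (SD, n = 3). Lsp2 was at 0 and the estimates of Yp1 and Yp3 were 0.19 and 0.26. In sorted bulk samples, fewer cells of a type and less RNA per cell cannot be told apart.

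Across the 36 members the 7 downregulated genes are 19.4%, while 8.04% of all genes tested were downregulated. No member was upregulated, against 6.24% of all genes. DESeq2 called 2 members higher, beside 828 of the 9084 genes tested. At an unadjusted p under 0.05, 11 members were lower and 2 were higher, the latter being car and Npc2a. The share of all genes at this threshold was not counted, so these counts, and those by role below, have no background beside them. The estimates of 22 members were negative and those of 14 positive, with a median log2 fold change of -0.14 beside -0.018 for all genes tested. The control and RNAi libraries did not overlap for 16 members, of which 11 were lower and 5 higher in NF-YA RNAi. For comparison, the groups did not overlap for 36.0% of all genes tested. In the deposited normalized counts of the authors' table, which come from the same 6 libraries, the groups did not overlap for the same 16 members. They did not overlap for 36.6% of the 8470 genes in that table. For a single gene, exact permutation of 3 against 3 libraries cannot give a two-sided p below 0.1, so calls rest on the fit across all genes.

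**Figure D1:**
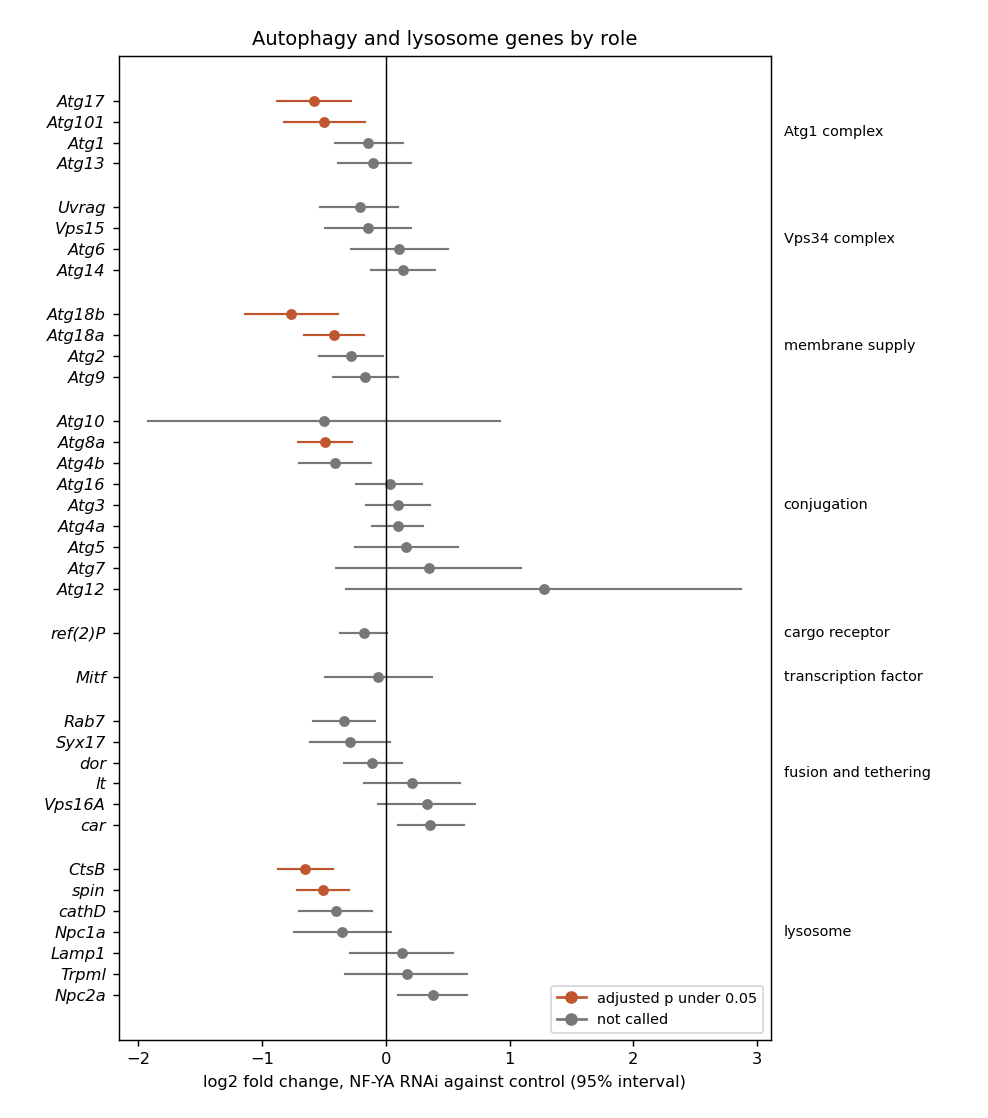
Log2 fold change of each of the 36 members in NF-YA RNAi against control, grouped by role, with lines for the 95% interval of the edgeR estimate. Orange marks the 7 genes with an adjusted p under 0.05, all of them left of 0, and the intervals are widest for Atg10 and Atg12, which are among the genes at the lowest levels.

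The Atg1 complex had a called gene for 2 of its 4 members. Atg17, the scaffold of the complex and the fly counterpart of FIP200, was at 81.3, 66.7 and 59.0 CPM in control libraries 1, 2 and 3, and at 50.2, 45.9 and 42.5 CPM in RNAi libraries 2, 4 and 5. Every RNAi library was below every control library. The log2 fold change of Atg17 was -0.58 (SE 0.13, adjusted p = 0.021), which leaves 66.9% of the control level. Atg101, the subunit that binds Atg13, was at 15.6, 12.9 and 12.7 CPM in the control and at 9.88, 9.64 and 9.65 CPM in NF-YA RNAi. The 3 RNAi libraries lay close together and below the control, with control library 1 the highest. Its log2 fold change was -0.50 (SE 0.15, adjusted p = 0.048), just inside the threshold, and the call was lost when any 1 of the 6 libraries was left out.

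The catalytic and regulatory subunits of that complex were not called. Atg1, the kinase, was at 72.2, 59.6 and 54.5 CPM in the control and 60.3, 53.5 and 55.7 CPM in NF-YA RNAi, and the groups overlapped. The log2 fold change was -0.14, with a 95% interval from -0.41 to 0.14 (adjusted p = 0.515). Atg13, its regulatory partner and a target of mTORC1, had an estimate of -0.10 with an interval from -0.39 to 0.20. All 4 estimates of the complex were negative, with a median of -0.32, and they stayed negative under both other scalings tried. By TPM the 4 genes lay within a narrow range in the control, with Atg1 at 14.9 ± 1.88, Atg17 at 9.21 ± 1.35, Atg13 at 7.67 ± 0.692 and Atg101 at 6.81 ± 0.62 (SD, n = 3). The ranges of mean ± SD overlapped for the neighbours Atg17 and Atg13 and for Atg13 and Atg101.

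In the Vps34 complex, which makes the lipid phosphatidylinositol 3-phosphate on the forming membrane, 0 of 4 members were called. At an unadjusted p under 0.05 the count was also 0, and DESeq2 called none of them. Atg14, the subunit that directs the complex to autophagosome formation, was at 21.8, 23.7 and 23.0 CPM in the control and at 27.0, 23.9 and 24.6 CPM in NF-YA RNAi. The groups did not overlap, but control library 2 and RNAi library 4 were nearly equal, and the log2 fold change was 0.14 (interval from -0.12 to 0.40, adjusted p = 0.473). Uvrag, which takes the place of Atg14 in the endosomal form of the complex, had the largest estimate of the group at -0.21 (interval from -0.53 to 0.10), with 19.0, 19.7 and 16.4 CPM in the control and 17.8, 15.6 and 14.1 CPM in NF-YA RNAi. Atg6, the counterpart of Beclin 1, had an estimate of 0.11, and the pseudokinase Vps15 one of -0.14. The Vps34 lipid kinase itself stands in the table under the symbol Pi3K59F and is not a member by the rule. It averaged 59.9 ± 6.61 CPM in the control and 54.2 ± 1.87 CPM in NF-YA RNAi (SD, n = 3), with a log2 fold change of -0.15 (adjusted p = 0.426).

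Of the 4 genes that supply membrane, 2 were called. Atg18b, which with Atg18a belongs to the family of proteins that bind phosphatidylinositol 3-phosphate, had the largest decrease of all called members. It was at 38.4, 43.7 and 28.3 CPM in the control and at 24.1, 20.7 and 20.0 CPM in NF-YA RNAi. The control libraries differed more among themselves than the RNAi libraries did, but the groups did not overlap. Atg18b fell by 0.77 on the log2 scale (SE 0.17, adjusted p = 0.017). Atg18a was at 153, 130 and 138 CPM in the control and at 114, 106 and 94.4 CPM in NF-YA RNAi. Again all RNAi libraries were lower, and Atg18a fell by 0.42 on the log2 scale (SE 0.11, adjusted p = 0.030). This call ended when libraries were scaled by size only (adjusted p = 0.054) and without control library 1, control library 3, RNAi library 4 or RNAi library 5 (adjusted p from 0.0512 to 0.129).

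Atg2 and Atg9 work with the Atg18 proteins, Atg2 as a lipid transfer protein and Atg9 as a lipid scramblase in small vesicles. Atg2 was at 79.7, 65.4 and 61.4 CPM in the control and at 59.3, 56.2 and 54.4 CPM in NF-YA RNAi. The groups did not overlap, although the lowest control library and the highest RNAi library were close, and its estimate of -0.28 (interval from -0.54 to -0.02) was not called (adjusted p = 0.143). Atg9 was at 48.1, 40.1 and 45.9 CPM in the control and 42.9, 41.1 and 35.5 CPM in NF-YA RNAi, with overlapping groups and an estimate of -0.17 (adjusted p = 0.407). Thus all 4 estimates were negative, with a median of -0.35, also under the other scalings. Atg18a was the most abundant of the 4 by TPM, at 60.7 ± 2.8 in the control, and Atg18b was at 16.0 ± 3.88 (SD, n = 3).

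**Figure D2:**
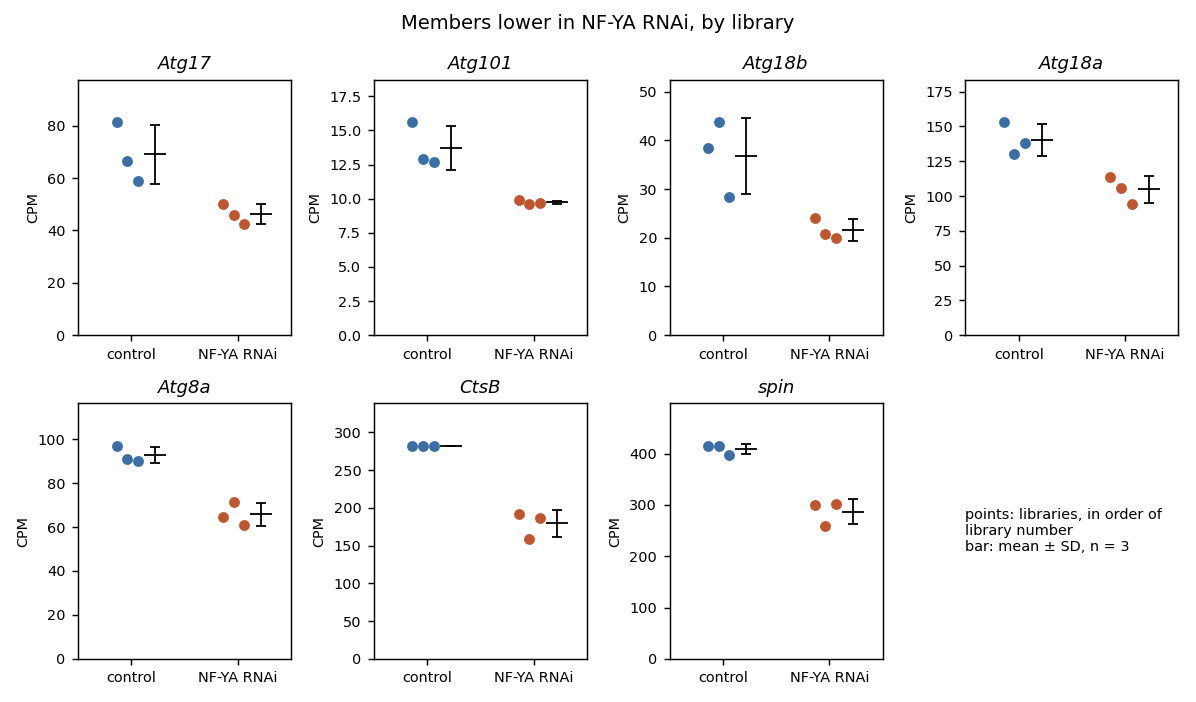
CPM of the 7 downregulated members in each of the 3 control (blue) and 3 NF-YA RNAi (orange) libraries, with mean and SD beside the points and axes that start at 0. In each panel the RNAi points lie below the control points, and the 3 control values of CtsB coincide at 282 CPM.

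Among the 9 genes of the conjugation reactions, edgeR called Atg8a, and DESeq2 called Atg8a and Atg4b. Atg8a is the ubiquitin-like protein that is attached to phosphatidylethanolamine on the autophagosome membrane, and it is the most widely used marker of that membrane. It was at 96.9, 91.1 and 90.1 CPM in the control and at 64.7, 71.6 and 61.1 CPM in NF-YA RNAi. The control libraries lay close together and all 3 RNAi libraries were well below them. The log2 fold change was -0.49 (SE 0.10, adjusted p = 0.012), which leaves 71.0% of the control level. Between 98.6% and 100% of the TPM of Atg8a in every library came from a single transcript, which the annotation used here does not hold and which was given to Atg8a because it completes the deposited gene value. Atg8b, the other fly Atg8 gene, had 0 counts in all libraries, which allows up to 0.0377 CPM in the shallowest of them.

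The enzymes and the Atg5 complex of these reactions were not called by edgeR. Atg4b, a protease that processes Atg8, came closest, with 80.6, 68.2 and 60.5 CPM in the control and 57.8, 51.9 and 47.8 CPM in NF-YA RNAi. The groups did not overlap, and the log2 fold change of -0.41 (interval from -0.70 to -0.12) had an adjusted p of 0.062. DESeq2 called Atg4b lower (adjusted p = 0.0208), as did edgeR without the filter on low counts (0.0415) and without control library 3 (0.0354). Its paralog Atg4a, the most abundant uncalled gene of the group at 35.4 ± 1.29 TPM (SD, n = 3), was at 93.0, 88.2 and 97.3 CPM in the control and 94.6, 103 and 100 CPM in NF-YA RNAi. The estimate for Atg4a was 0.10, with an interval from -0.11 to 0.30, so a decrease as large as that of Atg8a lies outside it. Exons of Atg4b share 207 bases with Tmtc4 and those of Atg4a share 2098 bases with CG4629, each on the other strand, and the strand setting of the counting is not named, so it is not known how reads from the shared bases were assigned.

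Atg12, the ubiquitin-like partner of Atg5, had the largest estimate of all members, at 1.28 on the log2 scale, and also the largest error (SE 0.71, adjusted p = 0.276). It was at 0.26, 0.469 and 0.376 CPM in the control and at 0.742, 1.09 and 0.855 CPM in NF-YA RNAi. All RNAi libraries were above all control libraries, but these values rest on few counts. The counts came from 1 of 2 transcripts in each library, and not always the same transcript, so that the share of either ran from 0% to 100% within both groups. The second transcript was likewise given to the gene from the deposited value, and 64 exonic bases of Atg12 are shared with ND-SGDH on the other strand. Atg7, the activating enzyme of both reactions, and Atg10, which hands Atg12 to Atg5, were also near the lower end, at 0.873 ± 0.215 and 1.01 ± 0.469 TPM in the control (SD, n = 3). Their intervals were wide, from -0.40 to 1.09 for Atg7 and from -1.92 to 0.92 for Atg10, and that of Atg10 holds a decrease as large as that of any called member. Atg3, which hands Atg8 to the lipid, Atg5 and Atg16 had estimates between 0.03 and 0.16. The median of the 9 genes was 0.10, with 6 estimates positive.

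The cargo receptor ref(2)P, the counterpart of p62, was at 236, 226 and 234 CPM in the control and at 211, 207 and 197 CPM in NF-YA RNAi. The groups did not overlap and the libraries of each group were close together, but the estimate was small, at -0.18 (interval from -0.37 to 0.01, adjusted p = 0.202). Mitf, the fly member of the transcription factor family that in mammals includes TFEB and activates lysosomal genes, was at 11.5, 7.94 and 11.7 CPM in the control and 9.23, 11.5 and 9.16 CPM in NF-YA RNAi. The groups overlapped, and the estimate of -0.06 (interval from -0.49 to 0.37) turned to 0.03 when libraries were scaled by their size only. It was the only member whose sign differed under that scaling or under RLE size factors.

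**Figure D3:**
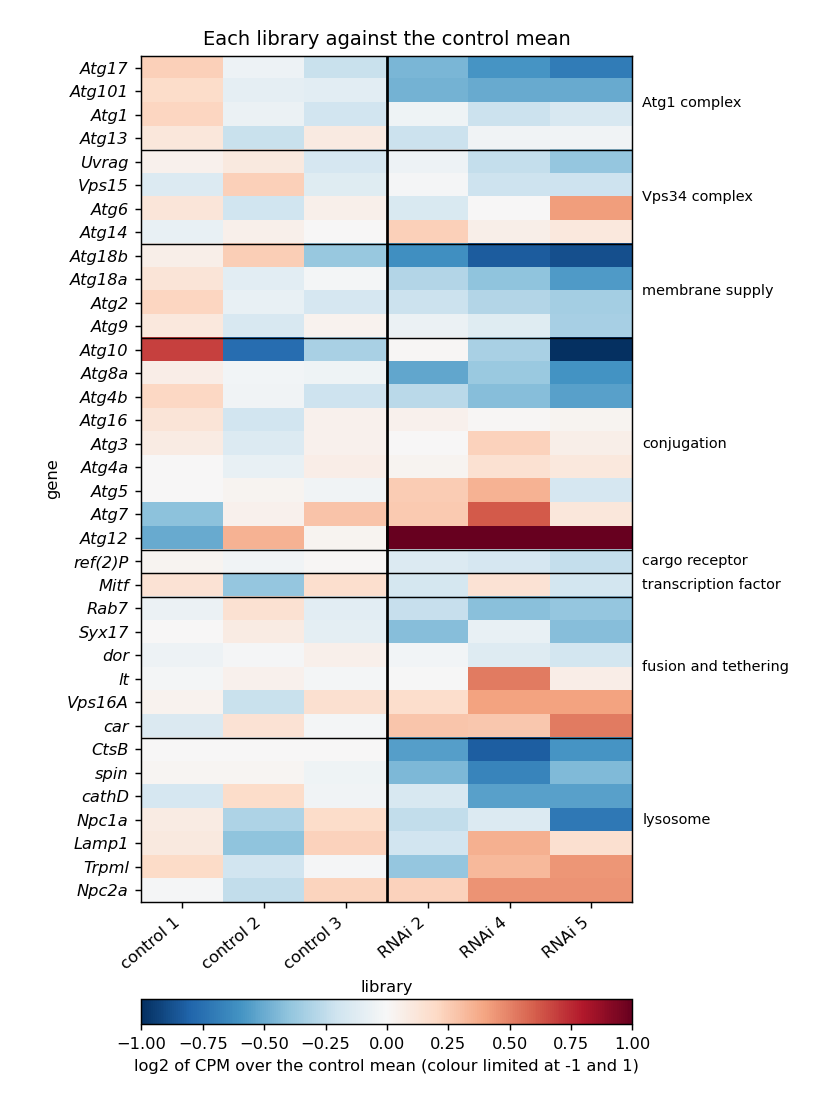
Log2 ratio of CPM in each library to the mean of the 3 control libraries, for the 36 members by role, with blue below and red above the control mean and the colour limited at -1 and 1. The rows of CtsB, spin, Atg8a, Atg17, Atg18b and Atg101 are blue in all 3 RNAi libraries, while those of Npc2a, car and Vps16A are red there.

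Of the 6 genes that bring autophagosomes and lysosomes together, 0 were called, with 1 higher and 1 lower at an unadjusted p under 0.05. DESeq2 called Rab7 lower and car higher. Rab7, the small GTPase of late endosomes and the most abundant of the 6 at 38.8 ± 6.03 TPM (SD, n = 3), was at 52.7, 60.8 and 50.8 CPM in the control and at 46.6, 41.1 and 41.9 CPM in NF-YA RNAi. The groups did not overlap, and the estimate was -0.34 (interval from -0.59 to -0.09, adjusted p = 0.070). In the opposite direction, car, the Vps33A subunit of the HOPS tethering complex, was at 41.7, 51.0 and 45.5 CPM in the control and at 55.8, 55.7 and 66.2 CPM in NF-YA RNAi. Every RNAi library was higher, with an estimate of 0.36 (interval from 0.10 to 0.63, adjusted p = 0.071).

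Among the 4 HOPS subunits, 3 had positive estimates, with a median of 0.27. Vps16A, the partner of car within HOPS, was at 7.41, 6.2 and 8.08 CPM in the control and 8.18, 9.58 and 9.56 CPM in NF-YA RNAi, with an estimate of 0.33 (adjusted p = 0.242). The estimate for lt, the Vps41 subunit, was 0.21, and that for dor, the Vps18 subunit, was -0.11 with an interval from -0.34 to 0.13. Syx17, the SNARE protein of the autophagosome, had an estimate of -0.29 (adjusted p = 0.207) with overlapping groups. The estimates of the 6 genes were 3 negative and 3 positive.

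The lysosome group held the members at the highest levels and those with the smallest adjusted p. CtsB, the cysteine protease cathepsin B, was at 282 CPM in each of the 3 control libraries and at 192, 159 and 187 CPM in NF-YA RNAi. The control values were nearly identical and every RNAi library was far below them. CtsB fell by 0.65 on the log2 scale (SE 0.10, adjusted p = 0.0036), to 63.6% of the control. In the authors' table its deposited normalized counts were 29933, 29556 and 29750 in the control and 20374, 16653 and 19882 in NF-YA RNAi. Across control libraries 1, 2 and 3, where CtsB was level, the enterocyte marker sums were 5742, 2297 and 2058 CPM and the enteroendocrine sums 2199, 2372 and 1851 CPM. In NF-YA RNAi, CtsB and the enteroendocrine sum were lowest in library 4, at 525 CPM for the latter, and the enterocyte sum was lowest in library 5, at 358 CPM. The other called members varied more in the control. Atg17 fell in the same order of libraries as the enterocyte sum. Atg101, Atg18a and Atg8a were also highest in control library 1, whereas Atg18b was highest in control library 2. Whether these genes follow the marker sums was not tested.

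The transporter spin, a lysosomal membrane protein of the major facilitator superfamily that is needed for lysosome renewal, was at 415, 415 and 397 CPM in the control and at 299, 259 and 302 CPM in NF-YA RNAi. As for CtsB, the control libraries were close together, all RNAi libraries were lower and library 4 was the lowest. The log2 fold change of spin was -0.51 (SE 0.09, adjusted p = 0.0078). The main spin transcript, RA, held between 88.5% and 92.7% of its TPM in the control and between 89.3% and 91.6% in NF-YA RNAi, ranges that overlap. The main CtsB transcript, also RA, held at least 94.8% in every library.

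The other 5 lysosome genes were not called by edgeR and had estimates on both sides of 0, while DESeq2 called cathD lower (adjusted p = 0.012) and Npc2a higher (adjusted p = 0.0114). The aspartyl protease cathD, cathepsin D, was at 369, 471 and 406 CPM in the control and 371, 285 and 285 CPM in NF-YA RNAi. RNAi library 2 lay just above control library 1, so the groups overlapped, and the estimate was -0.40 (interval from -0.70 to -0.11, adjusted p = 0.073). With edgeR cathD was called without the filter on low counts (adjusted p = 0.0439) and without RNAi library 2 (0.0211). Npc2a, the soluble sterol carrier of the lysosome, was the most abundant of all 36 members, at 699 ± 99.0 TPM in the control (SD, n = 3), and was at 372, 317 and 438 CPM in the control and 440, 513 and 511 CPM in NF-YA RNAi. All RNAi libraries were higher, but RNAi library 2 exceeded control library 3 by only a few CPM, and the estimate was 0.38 (interval from 0.10 to 0.66, adjusted p = 0.076). The membrane-bound partner of Npc2a in sterol export, Npc1a, had an estimate of -0.35 (interval from -0.74 to 0.04), with overlapping groups. Estimates were 0.13 for the membrane glycoprotein Lamp1 and 0.17 for the calcium channel Trpml, both with overlapping groups.

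**Figure D4:**
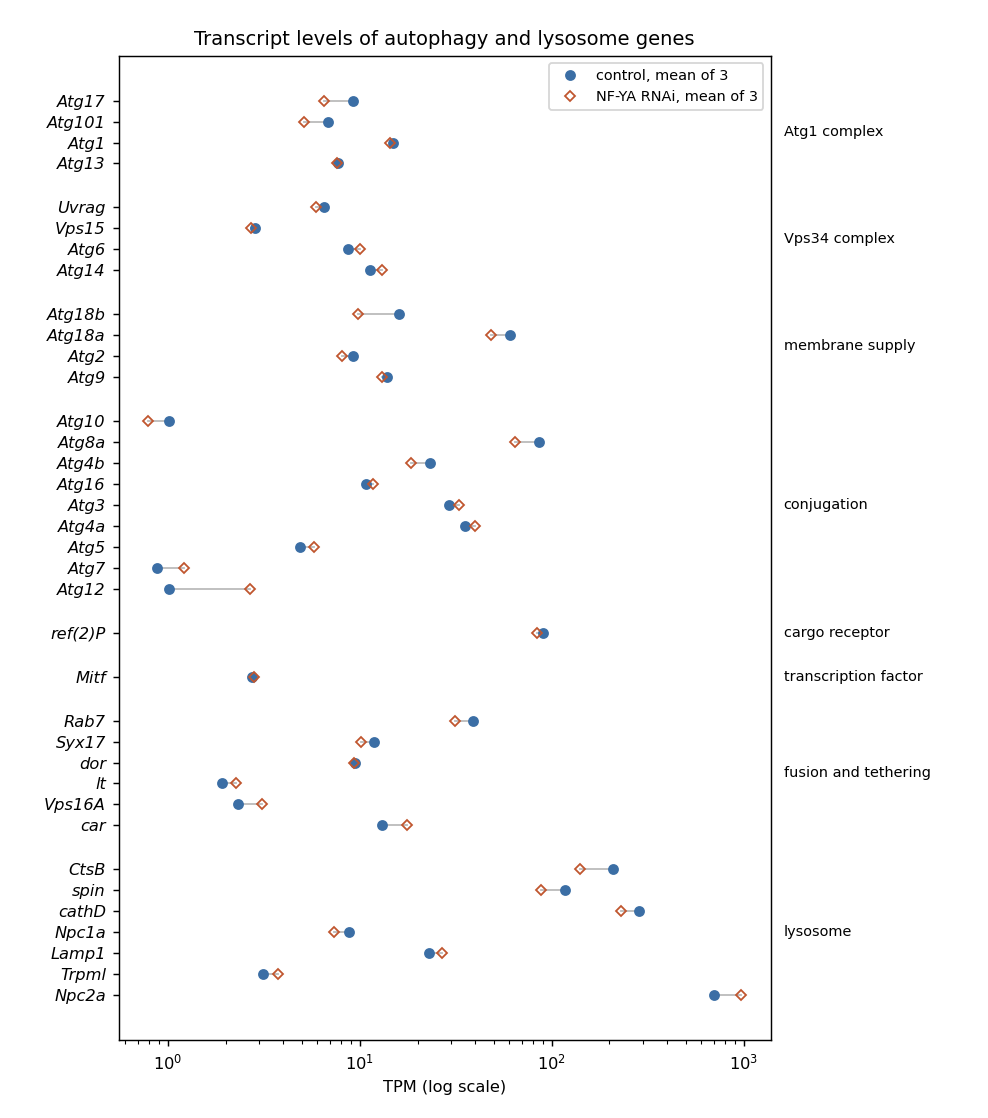
Mean TPM of each member over the 3 control libraries (blue circles) and the 3 NF-YA RNAi libraries (orange diamonds), on a log axis, grouped by role. In the control the lysosome genes Npc2a, cathD, CtsB and spin stand at the right, from 118 to 699 TPM, whereas Atg7, Atg10 and Atg12 lie near 1 TPM.

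By transcript level, Npc2a, cathD at 286 TPM, CtsB at 208 TPM and spin at 118 TPM led the members in the control, followed by ref(2)P at 89.7 TPM and Atg8a at 85.7 TPM. The SDs of cathD and CtsB, 47.3 and 8.31 TPM, separate these neighbours, whereas those of ref(2)P and Atg8a, 1.61 and 3.02 TPM (n = 3), let their ranges of mean ± SD overlap. In the conjugation group the order ran from Atg8a over Atg4a and Atg3 at 29.1 TPM down to Atg7 at 0.873 TPM. Of the 6 most abundant members, CtsB, spin and Atg8a were downregulated.

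The roles were compared by their counts and medians. The 12 genes of the Atg1 complex, the Vps34 complex and membrane supply had 10 negative estimates, 4 calls and a median of -0.19. The 9 conjugation genes had 3 negative estimates, 1 call and a median of 0.10, and the 7 lysosome genes had 4 negative estimates, 2 calls and a median of -0.35. The difference between these groups was not tested, and within the conjugation and lysosome groups the estimates ran from -0.50 to 1.28 and from -0.65 to 0.38. Of the 19 Atg genes, 5 were called.

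In each further list of pathway genes more estimates were negative than positive, though called genes were found in both directions. Of 17 further lysosomal hydrolases and their cofactors that were tested, 3 were downregulated and 1 was upregulated. Their estimates were 13 negative and 4 positive, with a median of -0.41. Hexo2, a hexosaminidase, was at 12.9, 12.5 and 12.5 CPM in the control and 5.84, 6.96 and 8.01 CPM in NF-YA RNAi, a fall of 0.86 on the log2 scale (adjusted p = 0.0099). Ppt1, the palmitoyl-protein thioesterase, fell by 0.83 (adjusted p = 0.025), and Cp1, a cathepsin L protease, fell by 0.45 from 359 ± 27.8 to 263 ± 27.2 CPM (SD, n = 3, adjusted p = 0.022). DNaseII, the acid nuclease, was at 5.31, 2.85 and 6.14 CPM in the control and at 10.1, 11.7 and 12.6 CPM in NF-YA RNAi. Its groups did not overlap, and it rose by 1.26 on the log2 scale (SE 0.27, adjusted p = 0.015). With CtsB, cathD and Cp1 the cathepsins B, D and L all had negative estimates. Those of CtsB and Cp1 passed edgeR's test, and DESeq2 called all 3. Of the other cathepsins on the list, CtsF had an estimate of -0.20 (adjusted p = 0.173) and 26-29-p one of 0.18 (adjusted p = 0.333).

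None of 7 further lysosomal membrane and sorting genes, of 14 further fusion genes and of 4 subunits of the AP-3 adaptor was called. At an unadjusted p under 0.05, 1 gene of the first list and 2 of the second were lower, and DESeq2 called none in these lists. Of 5 further autophagy genes, Tango5, the fly counterpart of VMP1, fell by 0.49 (adjusted p = 0.011), and Pi3K68D, a class II lipid kinase, fell by 0.45 (adjusted p = 0.037). Among 9 genes of nutrient signalling, 3 were downregulated and all 9 estimates were negative, with a median of -0.13. The list mixes parts of mTORC1, such as raptor, with its targets, such as Thor, so the shared sign has no single meaning for autophagy. REPTOR, a transcription factor held back by mTORC1, was at 95.5, 95.8 and 78.0 CPM in the control and 54.0, 49.0 and 37.9 CPM in NF-YA RNAi and fell by 0.93 on the log2 scale (adjusted p = 0.004). Its partner REPTOR-BP fell by 0.59 (adjusted p = 0.033), and foxo, a transcription factor inhibited by insulin signalling, fell by 0.51 (adjusted p = 0.032).

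The 7 called genes lie on 5 chromosome arms in the BDGP6.54 annotation, with CtsB (positions 13779847 to 13782170), Atg8a (10764878 to 10768338) and Atg101 (18791668 to 18793517) on X. Atg18a lies on 3L (8186857 to 8191118), Atg17 on 3R (5669713 to 5679930), Atg18b on 2L (21212322 to 21220572) and spin on 2R. Exons of none of these 7 genes overlap another gene, whereas 10 of the 36 members share exonic bases with a gene on the other strand, among them cathD, with 148 bases shared with puml, and ref(2)P, with 173 bases shared with CG10337. Like CtsB and spin, Atg17, Atg18a and Atg18b were each carried by more than 1 transcript. For Atg18b, RA held from 88.7% to 95.9% of the TPM in the control and from 68.1% to 98.3% in NF-YA RNAi. Its lowest share was in RNAi library 5, where RB was at 2.78 TPM. The main Atg17 transcript, RB, held from 78.6% to 94.6% of its TPM in the control and from 88.3% to 100% in NF-YA RNAi, and Atg18a was carried mostly by RA and RD, at 24.1 and 25.8 TPM in the control and 19.8 and 22.2 TPM in NF-YA RNAi.

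How far each call depended on single libraries was examined by leaving out each in turn. CtsB and spin were called in all 6 of these fits, with log2 fold changes from -0.71 to -0.57 and from -0.55 to -0.45. Atg8a was called in 5 of 6 and lost without RNAi library 5, where its estimate was within the range from -0.56 to -0.43 and the adjusted p was 0.066. Atg17 was called in 3 of 6 and was lost without control library 1, RNAi library 4 or RNAi library 5. Atg18a and Atg18b were each called in 2 of 6, and Atg18b was lost without control library 1, control library 2, RNAi library 4 or RNAi library 5. The number of downregulated members was 3 without control library 1, 3 without RNAi library 4 and 2 without RNAi library 5. Over all genes tested, the number downregulated was 355, 317 and 341 in these fits, against 730 with all 6 libraries. All 7 estimates were negative in each of the 6 fits with a library left out. The enterocyte and enteroendocrine marker sums and esg moved with the groups as given above, and their part in the decrease of these genes was not tested.

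**Figure D5:**
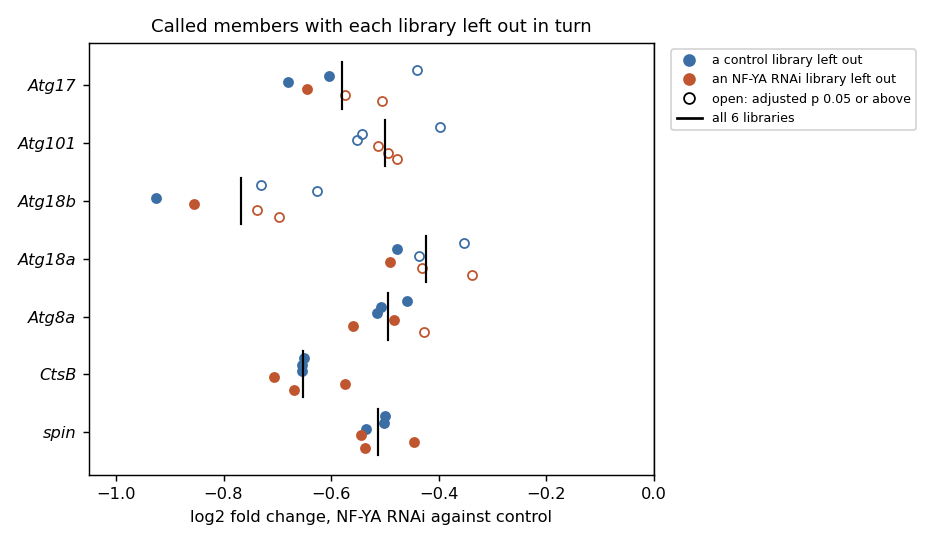
Log2 fold change of the 7 downregulated members with 1 library left out at a time, blue for a control and orange for an NF-YA RNAi library, filled where the adjusted p was under 0.05 and open otherwise, with a black line for all 6 libraries. All points lie left of 0, all 6 are filled for CtsB and spin, and all 6 are open for Atg101.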

How the data were processed

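ISCs of female midguts were profiled by mRNA sequencing in 3 control and 3 NF-YA RNAi samples. The authors used Trim Galore for trimming, STAR for alignment to the FlyBase genome and Salmon for transcript abundance. The submitters' processing notes name other tools instead (FastQC 0.11.2, Trimmomatic 0.33, TopHat2 2.1.0, HTSeq 2.7.6, limma 3.28.8). The deposited expected counts, without normalization, and TPM values of 34989 transcripts per library were used. The signal values of the deposited gene table are normalized counts. Its fold changes and p-values, from DESeq2, were not used. The strand setting is not given in the sources used here.

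Expected counts were summed to 17609 genes of BDGP6.54 (Ensembl release 115) and rounded. Of 44 transcripts in no gene, 20 were given to 19 genes whose deposited values they complete within 0.25 on the log2 scale, Atg8a and Atg12 among them, a step chosen after seeing the data. At most 0.003% of counts were in no gene. After filterByExpr and TMM normalization (factors from 0.934 to 1.034), groups were compared in R 4.3.3 by the quasi-likelihood test of edgeR 4.0.16, with a prior count of 0.125 and Benjamini-Hochberg adjustment. The code was tested on simulated data. Alternatives used RLE size factors, library size only, no filter, DESeq2 1.42.0, an offset for transcript length, limma 3.58.1 on log2 of the deposited normalized counts plus 1, a replicate block, and each library left out. A count of 3, taken as the floor, equals 0.0245 to 0.0377 CPM and covers counting error only. No 2 libraries agreed within sampling noise. The methods name the samples as independent.

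The members and gene lists were chosen with earlier results of these data known. All called members are described with every library. Of the others, those with the highest TPM and the largest absolute change in each role are described, and of further lists all called genes up to 5. Other genes and all transcript and position details were chosen after the values were seen. The listed symbols Tor, rubicon, Dl, hdc and dys were not analysed here. Figures used matplotlib 3.10.9 and intervals SciPy 1.17.1, under Python 3.11.15.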

Additional observations from a re-analysis of the deposited data

How the results depend on the processing

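The 7 downregulated members became 6 with RLE size factors, with an offset for transcript length and with limma on the deposited values, 5 with library size only (Atg18a and Atg101 lost), 8 without a filter and 10 with DESeq2. With 1 library left out they ranged from 2 to 7, while the downregulated genes among all tested ranged from 317 to 745. The 0 upregulated members became 2 with library size only and with DESeq2 (car and Npc2a), and 1 without a filter and with limma (Npc2a). With 1 library left out they ranged from 0 to 1, while the upregulated genes among all tested ranged from 191 to 511. With library size only, the median of all genes moved from -0.018 to 0.069, and 792 genes were upregulated and 544 downregulated, against 567 and 730. DESeq2 called 828 of all genes higher and 1026 lower. Without a filter, 621 of 11071 genes were upregulated and 846 downregulated. RLE size factors gave 588 genes upregulated and 714 downregulated, and the offset for transcript length gave 575 and 698. With limma, 628 of 8470 genes were upregulated and 737 downregulated. CtsB and spin were called under all 12 of these alternatives, Atg8a under 11, and Atg101 under DESeq2 only. No estimate of a called member changed sign under any alternative. Without the transcripts given to genes, a choice made after seeing the data, 6 members were downregulated, beside 728 of the 9080 genes tested. Atg8a was not among these 6 members, by construction.

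The numbers in the sample titles are shared by 2 control and 2 RNAi samples, whose deviations from the group means correlated across genes by 0.05 and -0.02. With deviations from means of 3 libraries, this cannot show whether samples with the same number were prepared together. The methods say only that the samples were processed in parallel. With a replicate block over these 4 libraries, 0 members were upregulated and 2 were downregulated, CtsB and Atg18b. The same 4 libraries without a block, a fit added after seeing the data, also gave 0 and 2, and the same genes. Of all 9250 genes tested there, 363 were downregulated with the block and 314 without it, and 165 and 189 were upregulated.

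Depth bears most on Atg7, Atg10 and Atg12, the members with the lowest levels, the widest intervals and counts as low as 27.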
